A study of Arabidopsis thaliana with 4 samples.

Results

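Transcript levels of 10 genes, most of potassium transport and its control, were read in roots of *Arabidopsis thaliana* from this RNA‐Seq data set. Potassium uptake itself was not measured. The genes were taken by their locus identifiers from the 28642 loci of the deposited table. They were the AP2/ERF transcription factor genes *RAP2.11* (AT5G19790) and *RAP2.1* (AT1G46768), the uptake genes *HAK5* (AT4G13420), *AKT1* (AT2G26650) and *KC1* (AT4G32650), the regulators *CIPK23* (AT1G30270), *CBL1* (AT4G17615) and *CBL9* (AT5G47100), and the xylem loading genes *SKOR* (AT3G02850) and *NRT1.5* (AT1G32450). All 10 had enough reads to be tested. Whole roots of *atx1setm* seedlings were set against those of the wild type (WT, accession Ws), with 2 biological replicates of each genotype, and the libraries held between 38574293 and 46439122 exon reads. The *atx1setm* line carries, in the *atx1‐1* mutant background of the same accession, a transgene for ATX1 (a histone H3 lysine methyltransferase) that lacks its catalytic activity. The labels give an age of 10 days after germination for both genotypes.

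Roots take up potassium by a pair of routes. The high‐affinity transporter HAK5 works when external potassium is scarce, and its gene is switched on by potassium starvation, in part through RAP2.11, which binds a GCC‐type element of the *HAK5* promoter. The channel AKT1, which assembles with the modulatory subunit KC1, works over a wider range and, like HAK5, is activated by the kinase CIPK23 together with the calcium sensors CBL1 and CBL9. Once inside, potassium is released into the xylem by the outward channel SKOR and by NRT1.5, a nitrate transporter that also moves potassium. RAP2.1 is a repressor of the DREB type, which binds the drought‐ and cold‐responsive DRE element.

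The reads of *ATX1* itself came to 10.2 and 7.01 CPM (exon reads scaled to the size of the library) in *atx1setm* against 14.8 and 9.95 CPM in WT, with a log2 fold change of −0.53 and an adjusted p of 0.701 by the quasi‐likelihood test of edgeR, but transcripts of the transgene map to the same locus, so this value does not check the labels. All 7 root hair markers were lower in *atx1setm* at an unadjusted p under 0.05 (4.78% of all genes tested), and their summed level was 178 and 209 CPM in *atx1setm* and 634 and 705 CPM in WT, with none at 0. None of the markers of endodermis (3 genes), stele and xylem (5), phloem (2), root cap (2) and green shoot (5) passed that threshold in either direction. The markers were listed with earlier results of these data known, so these counts are a description and not a test. The summed level of the green shoot markers was 116 and 349 CPM in *atx1setm* and 178 and 285 CPM in WT, and it was higher in replicate 2 of both genotypes. In whole roots, fewer cells of a type and less RNA per cell cannot be told apart.

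The stretch of DNA before each gene start is shown for the *RAP2.11*, *HAK5* and *RAP2.1* loci, because *RAP2.11* and *HAK5* were the genes of the 10 that differed most between the genotypes and *RAP2.1* encodes the other factor. Each is 300 bases long, reads 5′ to 3′ on the strand of the gene and ends at the base before the deposited gene start. Capitals mark the DRE core (ACCGAC or GCCGAC, or on the other strand GTCGGT or GTCGGC) in *RAP2.1* and the palindrome GCCGGC in *HAK5*. The letters are from the TAIR10.1 reference at the TAIR10 coordinates of the deposited table. They were not read from the Ws plants studied here, whose sequence may differ.
RAP2.11, chr5:6690041-6690340, minus strand: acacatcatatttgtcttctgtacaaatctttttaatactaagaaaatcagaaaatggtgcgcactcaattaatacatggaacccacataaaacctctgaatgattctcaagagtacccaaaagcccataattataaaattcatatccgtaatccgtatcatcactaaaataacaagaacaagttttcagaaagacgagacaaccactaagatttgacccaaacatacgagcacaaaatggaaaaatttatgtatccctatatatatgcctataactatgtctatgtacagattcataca
HAK5, chr4:7802252-7802551, minus strand: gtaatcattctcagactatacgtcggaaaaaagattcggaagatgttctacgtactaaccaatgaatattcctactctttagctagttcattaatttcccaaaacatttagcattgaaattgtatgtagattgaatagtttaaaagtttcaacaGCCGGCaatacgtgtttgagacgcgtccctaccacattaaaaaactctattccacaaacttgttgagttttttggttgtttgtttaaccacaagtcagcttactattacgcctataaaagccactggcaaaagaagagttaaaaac
RAP2.1, chr1:17266537-17266836, minus strand: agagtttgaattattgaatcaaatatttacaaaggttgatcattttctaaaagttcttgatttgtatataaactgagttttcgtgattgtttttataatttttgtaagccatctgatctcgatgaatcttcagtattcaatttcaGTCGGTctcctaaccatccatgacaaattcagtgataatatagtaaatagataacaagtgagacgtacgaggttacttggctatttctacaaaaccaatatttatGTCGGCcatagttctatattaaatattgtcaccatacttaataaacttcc

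The GCC box (GCCGCC, or GGCGGC on the other strand) was in none of the 3 stretches. It was found in 2.55% of the 26718 promoters of this length and in 8.54% of windows of 1000 bases. In *HAK5* it was absent from the 1000 bases before the start as well. In *RAP2.11* it lay once, 822 bases before the start, within ttagagggtggtGGCGGCggtgaatatctc, where capitals mark the box (chr5:6690845-6690874, minus strand). The DRE core lay 155 and 50 bases before the start of *RAP2.1*, against 8.8% of all promoters of 300 bases with at least 1, and 428 bases before that of *RAP2.11*, against 22.8% of windows of 1000 bases. The letters GCCGGC lay 146 bases before the *HAK5* start and were in 1.01% of promoters of 300 bases. This last motif was chosen after the sequence had been read. A match is a description of the letters of the reference only.

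*RAP2.11* was expressed at a lower level in *atx1setm* roots. This single‐exon gene of 933 bases (chromosome 5, 6689108 to 6690040, minus strand) had 349 and 249 exon reads in *atx1setm* and 1137 and 1034 in WT. Scaled to the adjusted library size, these were 7.48 and 6.47 CPM in *atx1setm* and 23.1 and 26.5 CPM in WT. Both mutant libraries lay well below both WT libraries, and the replicates of each genotype were close to each other. The means were 6.97 ± 0.716 CPM in *atx1setm* and 24.8 ± 2.45 CPM in WT (SD, n = 2 each), a 3.55‐fold lower level with a log2 fold change of −1.83 (SE 0.25). With the quasi‐likelihood test the unadjusted p was 0.000692, and after adjustment over 20714 genes it was 0.113. The adjusted p was 2.33e-05 with edgeR's exact test and 0.000175 with DESeq2, so the call depends on the test. Over the alternatives without a replicate block it ran between 2.33e-05 and 0.202.

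The 3′ end of *RAP2.11* overlaps the α‐tubulin gene *TUA5* on the opposite strand by 64 bases. Without knowledge of the strand, reads of these bases cannot be assigned to either gene. *TUA5* was abundant, with 116 and 160 CPM in *atx1setm* and 136 and 146 CPM in WT, and its log2 fold change was −0.03 (SE 0.27). The 2 *atx1setm* libraries lay on either side of the WT libraries for *TUA5*. *RAP2.11* had no intron and gave no junction reads.

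*RAP2.1*, here the locus AT1G46768, did not differ beyond the spread between replicates. Whether the symbol stands for the same locus throughout the study was not established. The locus had 216 and 369 exon reads in *atx1setm* and 201 and 184 in WT, or 4.63 and 9.58 CPM in *atx1setm* and 4.08 and 4.72 CPM in WT. Replicate 1 of the mutant lay within the WT range, and replicate 2 alone stood above it. The log2 fold change was 0.69 (SE 0.43), with an adjusted p of 0.691 by the quasi‐likelihood test. Without *atx1setm* replicate 1 it was 1.12 with an adjusted p of 0.0297, and without *atx1setm* replicate 2 it was 0.09, so the value rests on 1 library. Over all alternatives the adjusted p ran between 0.0297 and 1. The longest run of identical bases in the exons of *RAP2.1* and *RAP2.11* was 10 bases, against reads of 50 bases.

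*HAK5*, the high‐affinity transporter gene, had the largest difference of the 10 genes. Its 9 exons (2623 bases in all; chromosome 4, 7796850 to 7802251, minus strand) held 952 and 523 reads in *atx1setm* and 3923 and 4355 in WT. The levels were 20.4 and 13.6 CPM in *atx1setm* and 79.6 and 112 CPM in WT. The highest mutant library was thus far below the lowest WT library. The means were 17.0 ± 4.82 CPM in *atx1setm* and 95.6 ± 22.7 CPM in WT (SD, n = 2 each), a 5.62‐fold lower level with a log2 fold change of −2.49 (SE 0.34). The unadjusted p was 0.000701 and the adjusted p 0.113 by the quasi‐likelihood test, against 3.5e-07 with edgeR's exact test and 1.53e-07 with DESeq2. Over the alternatives without a replicate block the adjusted p ran between 1.53e-07 and 0.167. It was 1.57e-05 to 0.0237 with 1 library left out, but those fits take the spread from the other genotype alone and assume that the lone library varies like it, and so do not add to the test on all 4 libraries.

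Intron reads and junction reads of *HAK5* were also lower in both mutant libraries than in both WT libraries. Junction reads are part of the exon reads and so are not separate from them. Within WT, intron reads were higher in replicate 1, whereas exon reads were higher in replicate 2. Intron reads numbered 11 and 7 in *atx1setm* and 49 and 22 in WT, or 0.254 and 0.154 RPM (scaled to all exon and intron reads of the library) in *atx1setm* and 1.04 and 0.564 RPM in WT. Reads across exon junctions numbered 151 and 73 in *atx1setm* and 618 and 665 in WT. As a share of the exon reads of *HAK5*, junction reads made up 15.9% and 14.0% in *atx1setm* and 15.8% and 15.3% in WT. Spliced reads were therefore lower by about as much as exon reads. The few intron reads allow no more than a description.

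**Figure D1:**
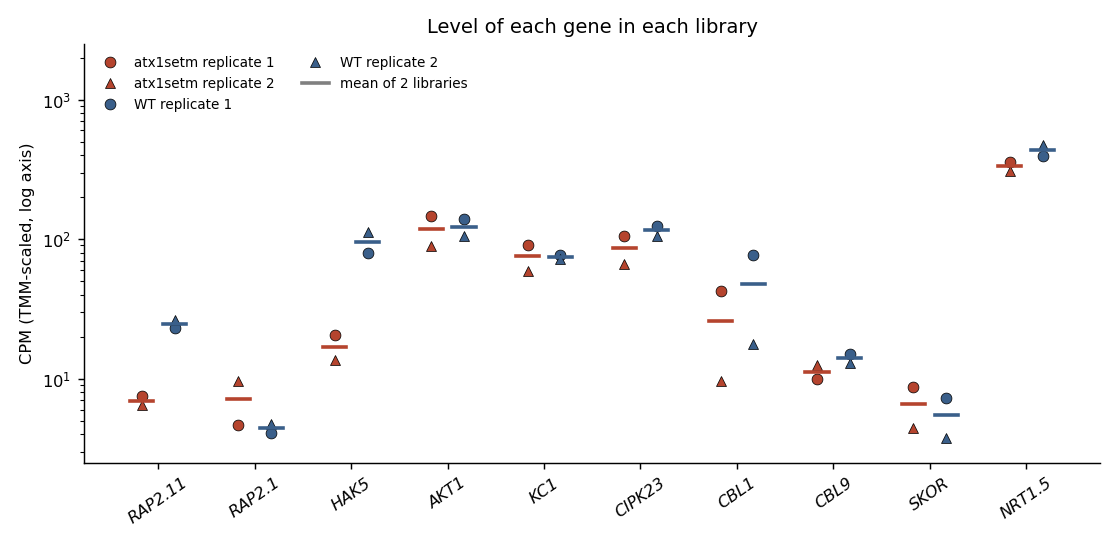
Level of each of the 10 genes in each library, in CPM on a log axis, with *atx1setm* (red) left of WT (blue), circles for replicate 1, triangles for replicate 2 and a line for the mean of 2 libraries. The *RAP2.11* libraries lie at 7.48 and 6.47 CPM in *atx1setm* and 23.1 and 26.5 CPM in WT, and those of *HAK5* at 20.4 and 13.6 CPM in *atx1setm* and 79.6 and 112 CPM in WT, while *CBL1* is split by replicate number in both genotypes.

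*AKT1*, the gene of the main uptake channel, differed less between the genotypes than between replicates. Its exon reads numbered 6836 and 3424 in *atx1setm* and 6885 and 4106 in WT. These were 147 and 88.9 CPM in *atx1setm* and 140 and 105 CPM in WT. The mutant libraries fell on either side of the WT libraries. Its log2 fold change was −0.06 (SE 0.34), with an adjusted p of 0.957. It was 0.28 without *atx1setm* replicate 2 and 0.16 without WT replicate 1, so it has no stable direction. *AKT1* overlaps *KCS11* on the opposite strand by 9 bases, and the log2 fold change of *KCS11* was −0.08.

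*KC1*, the gene of the modulatory subunit, had the same pattern. It had 4263 and 2287 exon reads in *atx1setm* and 3790 and 2816 in WT. The levels were 91.4 and 59.4 CPM in *atx1setm* and 76.9 and 72.2 CPM in WT, with a log2 fold change of 0.02 (SE 0.29) and an adjusted p of 0.986. The 2 WT libraries lay between the 2 mutant libraries. The sign of this value turned with the scaling and with the library left out. Within a library, the RPKM (reads scaled to exon length and library size) of *KC1* was 0.806 and 0.864 times that of *AKT1* in *atx1setm* and 0.712 and 0.887 times in WT. The mutant ratios thus lay between those of WT. In *atx1setm*, replicate 1 held 1.65 times the CPM of replicate 2 for *AKT1* and 1.54 times for *KC1*. In WT it held 1.33 times for *AKT1* but only 1.06 times for *KC1*.

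The ratio of *HAK5* to *AKT1*, which does not depend on the scaling of a library, was 0.151 and 0.166 in *atx1setm* and 0.62 and 1.15 in WT, as ratios of RPKM. In WT the transporter gene thus stood near the level of the channel gene, and in *atx1setm* well below it. The means were 0.159 ± 0.0104 in *atx1setm* and 0.886 ± 0.377 in WT (SD, n = 2 each), a log2 difference of −2.41. The exact permutation test, two‐sided, gave p = 0.333, which is the smallest value that 2 libraries against 2 allow. The ratio of *HAK5* to *RAP2.11*, computed after the values had been seen, was 0.97 and 0.747 in *atx1setm* and 1.23 and 1.5 in WT. It too was lower in both mutant libraries, so *HAK5* was lower in *atx1setm* by more than *RAP2.11*, with the same limit on p.

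**Figure D2:**
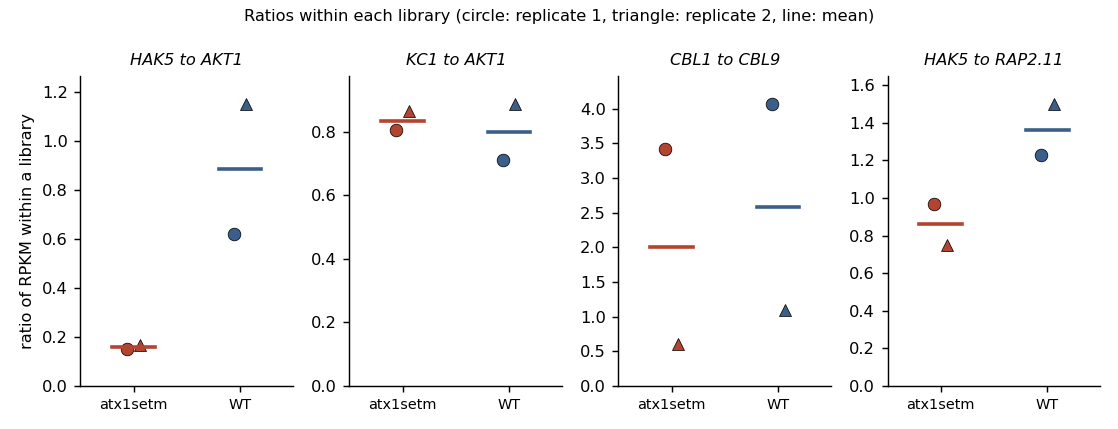
Ratios of RPKM within each library for 4 pairs of genes, with *atx1setm* left of WT, circles for replicate 1, triangles for replicate 2 and a line for the mean. The *HAK5* to *AKT1* ratio is 0.151 and 0.166 in *atx1setm* and 0.62 and 1.15 in WT, while *KC1* to *AKT1* lies between 0.712 and 0.887 in all 4 libraries.

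Root hairs are a site of potassium uptake, and their markers were lower in *atx1setm*, as given above. Set against the summed RPKM of the 7 root hair markers, *RAP2.11* was at 0.0538 and 0.0391 in *atx1setm* and 0.0464 and 0.0479 in WT, so the WT libraries lay between the mutant ones. *HAK5* was at 0.0522 and 0.0292 in *atx1setm* and 0.057 and 0.0718 in WT, with both mutant libraries below both WT libraries. *AKT1* was at 0.345 and 0.176 in *atx1setm* and 0.0919 and 0.0622 in WT, with both mutant libraries above. These ratios were computed after the values had been seen. *PRP3* made up most of the sum, at 110 and 98.7 RPKM in *atx1setm* and 425 and 447 RPKM in WT. The ratios thus compare each gene mainly with *PRP3*, while the log2 fold changes of the 7 markers ran from −3.61 to −0.9. The part of the root hair markers in the lower *RAP2.11* and *HAK5* levels was not tested.

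*CIPK23*, which encodes the kinase that activates both AKT1 and HAK5, had 4960 and 2555 exon reads in *atx1setm* and 6176 and 4132 in WT. Its levels of 106 and 66.4 CPM in *atx1setm* and 125 and 106 CPM in WT met at their edges. The log2 fold change was −0.42 (SE 0.31), with an adjusted p of 0.726. The value was negative under every alternative tried, between −0.8 and −0.1, and none of them brought it past an adjusted p of 0.05.

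The calcium sensor gene *CBL1* differed widely between the replicates of each genotype. It had 1983 and 368 exon reads in *atx1setm* and 3795 and 693 in WT, or 42.5 and 9.56 CPM in *atx1setm* and 77.0 and 17.8 CPM in WT. Replicate 1 thus held 4.45 times the CPM of replicate 2 in *atx1setm* and 4.33 times in WT. Such a split was uncommon, as only 557 of 20714 genes tested, or 2.69%, were at least 2‐fold higher in replicate 1 of both genotypes. No source says what libraries of the same number share. The log2 fold change of −0.86 (SE 0.94) had an adjusted p of 0.777, and it was −2.31 (adjusted p 0.00826) without *atx1setm* replicate 1 and 0.55 without WT replicate 1. Over the alternatives without a replicate block the adjusted p ran between 0.00826 and 1.

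*CBL9*, the close relative of *CBL1*, did not share the split. It had 461 and 481 exon reads in *atx1setm* and 740 and 503 in WT, or 9.88 and 12.5 CPM in *atx1setm* and 15.0 and 12.9 CPM in WT. Both mutant libraries lay below both WT libraries, by a small margin. With a log2 fold change of −0.32 (SE 0.26), the adjusted p was 0.741. The ratio of *CBL1* to *CBL9* in RPKM was 3.42 and 0.608 in *atx1setm* and 4.07 and 1.09 in WT, so which of the sensor genes was the higher changed with the library in *atx1setm*. The longest run of bases that the exons of this pair share is 35, shorter than a read of 50 bases. It is shown because it bears on whether their reads can be told apart.
CBL1 and CBL9 shared run, chr4:9818574-9818608, plus strand: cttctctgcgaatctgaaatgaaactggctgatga

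*SKOR*, the gene of the outward channel of the stele, was the lowest of the 10 genes per length. Its exon reads numbered 410 and 172 in *atx1setm* and 361 and 146 in WT. These were 8.79 and 4.47 CPM in *atx1setm* and 7.32 and 3.75 CPM in WT. The genotypes overlapped, and replicate 1 was higher than replicate 2 by 1.97 times in *atx1setm* and 1.95 times in WT. The log2 fold change was 0.26 (SE 0.50), with an adjusted p of 0.862, and it was negative without *atx1setm* replicate 1 (−0.31) or without WT replicate 2 (−0.12). *SKOR* overlaps AT3G02840 on the opposite strand by 9 bases.

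*NRT1.5* was the most abundant of the 10 genes. It had 16568 and 11908 exon reads in *atx1setm* and 19498 and 18468 in WT. The levels were 355 and 309 CPM in *atx1setm* and 395 and 474 CPM in WT, and the groups did not overlap. The means were 332 ± 32.4 CPM in *atx1setm* and 435 ± 55.4 CPM in WT (SD, n = 2 each). The log2 fold change was −0.39 (SE 0.28), with an unadjusted p of 0.218 and an adjusted p of 0.723 by the quasi‐likelihood test.

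**Figure D3:**
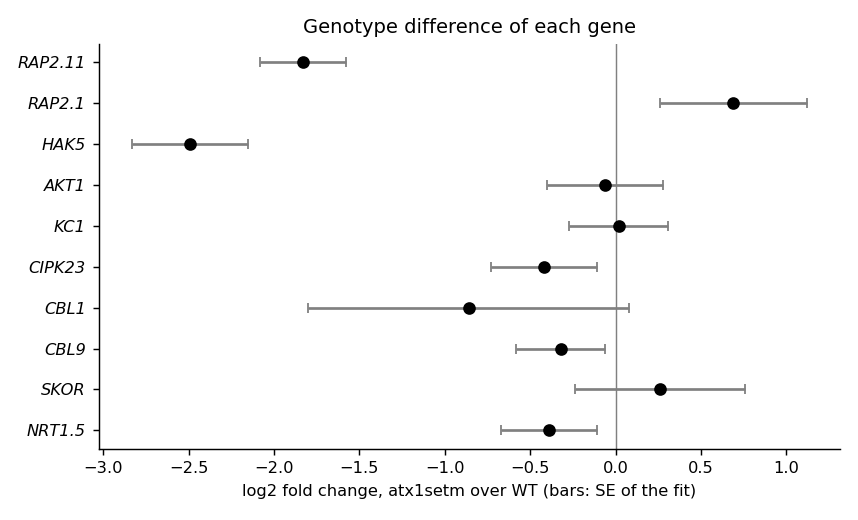
Log2 fold change of *atx1setm* over WT for each of the 10 genes, with the SE of the fitted model as bars and a line at 0. *HAK5* (−2.49) and *RAP2.11* (−1.83) stand apart from the other 8 genes, which lie between −0.86 and 0.69, and the bar of *CBL1* is the widest.

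Of the 10 genes, 2 were lower and 0 higher in *atx1setm* at an unadjusted p under 0.05, while 4.78% of all 20714 genes tested were lower and 4.93% higher. At an adjusted p under 0.05, the quasi‐likelihood test called 0 of the 10 and 0.0% of all genes in either direction. The genes called at that threshold by edgeR's exact test were *RAP2.11* and *HAK5*, both lower (2.24% of all genes lower, 1.71% higher). DESeq2 also called these 2 genes (1.75% of all genes lower, 1.46% higher). Both mutant libraries lay below both WT libraries for 4 of the 10 (*RAP2.11*, *HAK5*, *CBL9* and *NRT1.5*) and above them for 0, against 20.0% below and 19.6% above among all genes. The median log2 fold change was −0.35 over the 10 genes and −0.01 over all genes tested.

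Compared per length, *NRT1.5* led in both genotypes, with a mean of 147 RPKM in *atx1setm* and 203 RPKM in WT, and *SKOR* came last, with 2.55 RPKM in *atx1setm* and 2.2 RPKM in WT. The transporter gene changed place. *HAK5* was the ninth of the genes in *atx1setm*, at 4.38 to 8.37 RPKM, and the fourth in WT, at 31.9 to 42.6 RPKM. Its range met those of its neighbours in the order, which were *RAP2.11* (5.86 to 8.63 RPKM) in *atx1setm* and *AKT1* (36.9 to 51.4 RPKM) and *KC1* (32.8 to 36.6 RPKM) in WT, while *SKOR*, the tenth in *atx1setm*, lay apart below it. *RAP2.11* was the eighth in *atx1setm* and the seventh in WT, where it lay at 26.0 to 28.4 RPKM. In *atx1setm* the ranges of the genes from *AKT1* down to *HAK5* overlapped each with the next, so the order of neighbours is not resolved. *AKT1*, *CIPK23* and *KC1* still all lay above *CBL9*, *RAP2.1*, *RAP2.11* and *HAK5*. In WT the ranges of neighbours likewise overlapped from *CIPK23* down to *RAP2.11*. There *RAP2.11* lay below *CIPK23*, *AKT1*, *HAK5* and *KC1*, and *HAK5* lay below *CIPK23*.

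Genes with the most similar profile were sought by the root mean square distance between log2 CPM values, centred on the mean of each gene, over the 4 libraries. For *RAP2.11* these were AT3G14540 (0.10), AT1G59725 (0.10) and AT3G58000 (0.11). AT3G14540 had 136 and 94 exon reads in *atx1setm* and 410 and 338 in WT. The others had fewer reads. AT1G59725 had 32 and 19 in *atx1setm* and 98 and 82 in WT. AT3G58000 had only 4 and 2 in *atx1setm* and 18 and 17 in WT, so its place is uncertain. *HAK5* was farther from *RAP2.11* (0.38), and 348 of the other 20713 genes tested, or 1.68%, were nearer. For *HAK5* the nearest were AT1G51770 (0.09), AT5G66780 (0.11) and *RR16* (0.12), a response regulator gene, all of which had at most 77 exon reads in a library. For *RAP2.1* they were AT3G03990 (0.01), named *D14* (*DWARF 14*) in the name table, *VAMP713* (0.02) and AT3G55170 (0.03), all of which were highest in *atx1setm* replicate 2. With 4 libraries many genes share such a profile.

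Beside the 10 genes, 86 further genes of potassium transport and its control were listed, and 78 had enough reads to be tested. Of these 78, 5 were lower and 3 higher in *atx1setm* at an unadjusted p under 0.05, and 0 in either direction passed an adjusted p under 0.05. By edgeR's exact test 2 were called lower and 2 higher at an adjusted p under 0.05 (2.24% of all genes lower, 1.71% higher). By DESeq2 1 was called lower and 2 higher (1.75% of all genes lower, 1.46% higher). The median log2 fold change was −0.09. At the unadjusted threshold, 4.78% of all genes tested were lower and 4.93% higher, so these shares are near the background.

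Among 8 tested Shaker and two‐pore channel genes, 2 were lower and 0 higher at an unadjusted p under 0.05, with a median of −0.12. Of all genes tested, 4.78% were lower and 4.93% higher at this threshold. *AKT2*, the channel of the phloem, had only 7 and 4 exon reads in *atx1setm* and 35 and 23 in WT, with a log2 fold change of −2.32 (SE 0.48) and an unadjusted p of 0.0048. *TPK2* had 43 and 21 reads in *atx1setm* and 114 and 72 in WT (log2 fold change −1.49, SE 0.43). Both genes that passed had few reads.

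*HAK5* belongs to the KUP/HAK/KT family of transporters. None of the 11 other members tested passed an unadjusted p of 0.05, and their median was −0.15, within a range of −0.69 to 0.39. *KUP5* was at 70.1 and 56.9 CPM in *atx1setm* and 91.7 and 87.4 CPM in WT. *KUP2* stood at 66.2 and 70.0 CPM in *atx1setm* and 49.5 and 54.3 CPM in WT, and *KUP8* at 50.6 and 48.1 CPM in *atx1setm* and 68.5 and 60.5 CPM in WT. Their directions were mixed.

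Of 11 cation/proton exchanger and *HKT1* genes tested, 1 was lower and 0 higher at an unadjusted p under 0.05, with a median of −0.26. Of all genes tested, 4.78% were lower and 4.93% higher. The lower gene was *CHX17*, which encodes a cation/proton exchanger of root cells, at 21.2 and 20.3 CPM in *atx1setm* and 59.4 and 58.8 CPM in WT. The replicates lay close together and the genotypes far apart. Its log2 fold change was −1.51 (SE 0.22), with an adjusted p of 0.127 by the quasi‐likelihood test, 0.000408 with edgeR's exact test and 0.00169 with DESeq2. *KEA3* (log2 fold change −0.56) and *CHX20* (1.00) were the next by p and did not pass.

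The other calcium sensors and kinases moved in both directions. At an unadjusted p under 0.05, 4.78% of all genes tested were lower and 4.93% higher. Among 7 other CBL genes, 1 was lower, *CBL10*, a sensor gene linked to salt tolerance, with 67 and 48 exon reads in *atx1setm* and 162 and 102 in WT (log2 fold change −1.14, SE 0.34). *CBL2* (−0.33) and *CBL4* (0.48) did not pass. Among 24 other CIPK genes, 0 were lower and 2 higher, with a median of 0.02. *CIPK22* stood at 20.1 and 20.9 CPM in *atx1setm* and 5.96 and 6.62 CPM in WT, a log2 fold change of 1.71 (SE 0.24) with an adjusted p of 0.116 by the quasi‐likelihood test, 7.86e-05 with edgeR's exact test and 0.000479 with DESeq2. *CIPK12* was at 62.1 and 62.3 CPM in *atx1setm* and 37.4 and 41.7 CPM in WT (log2 fold change 0.65), and *CIPK1* (−1.13, SE 0.54) did not pass. Thus *CIPK22*, and not *CIPK23*, was the kinase gene with the smallest p.

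Among 11 genes of low potassium signaling, 1 was lower at an unadjusted p under 0.05 (4.78% of all genes tested), with a median of −0.07. *HAI2*, which encodes a phosphatase that acts on CIPK23 and AKT1, had 6 and 9 exon reads in *atx1setm* and 24 and 32 in WT (log2 fold change −1.85, SE 0.56). *ARF2*, which encodes a repressor of *HAK5*, was at 129 and 89.5 CPM in *atx1setm* and 176 and 163 CPM in WT, and *EIN2*, a gene of ethylene signaling, at 111 and 76.9 CPM in *atx1setm* and 129 and 134 CPM in WT. Neither passed, with log2 fold changes of −0.63 for *ARF2* and −0.48 for *EIN2*. Among 6 genes of xylem loading and proton pumps, 1 was higher at an unadjusted p under 0.05 (4.93% of all genes tested), with a median of 0.17. This was *NRT1.8*, which encodes a transporter that takes nitrate back out of the xylem, with 874 and 402 exon reads in *atx1setm* and 167 and 54 in WT. Its log2 fold change was 2.6 (SE 0.56), with an adjusted p of 0.219 by the quasi‐likelihood test, 0.00129 with edgeR's exact test and 5.12e-05 with DESeq2. *MYB59* (0.45), a gene for a regulator of *NRT1.5*, and *SLAH1* (0.26) did not pass.

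Lists linked to the 2 factors were read in the same way. Of 14 other RAP2 and DEAR factor genes, 0 were lower and 4 higher at an unadjusted p under 0.05, and both mutant libraries lay above both WT libraries for 9, with a median of 0.52. Among all genes tested, 4.78% were lower and 4.93% higher, and the mutant libraries lay above in 19.6%. *RAP2.3*, a gene of the hypoxia‐related ERF group, was at 73.1 and 183 CPM in *atx1setm* and 33.7 and 54.6 CPM in WT (log2 fold change 1.53, SE 0.52). *RAP2.6L* was at 50.7 and 64.4 CPM in *atx1setm* and 36.5 and 35.1 CPM in WT (0.69, SE 0.24). *DEAR3* was at 22.9 and 44.9 CPM in *atx1setm* and 10.9 and 18.3 CPM in WT (1.21, SE 0.45), and *RAP2.9*, the fourth that passed, had a log2 fold change of 1.00. Of the 14, 12 had a positive log2 fold change, against 49.1% of all genes, and the lowest was −0.42, against −1.83 for *RAP2.11*. Their summed level was 916 and 1400 CPM in *atx1setm* and 773 and 918 CPM in WT. By this sum, replicate 1 of the mutant lay within the WT range, and replicate 2 alone stood above it.

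Of 9 tested cold and DRE‐linked genes, 2 were lower and 0 higher, all 9 log2 fold changes were negative, and their median was −0.87. Among all genes tested, 4.78% were lower and 50.9% had a negative log2 fold change. *COR15A*, a cold‐induced gene for a chloroplast protein, had only 1 and 3 exon reads in *atx1setm* and 15 and 13 in WT. *DREB2A*, which encodes an activator of drought and heat responses, was at 20.5 and 6.75 CPM in *atx1setm* and 66.5 and 30.0 CPM in WT (log2 fold change −1.82, SE 0.67). *RD29A*, a DRE‐driven gene, was at 23.3 and 10.1 CPM in *atx1setm* and 36.1 and 25.1 CPM in WT and did not pass. No gene of these 2 lists passed an adjusted p under 0.05 by the quasi‐likelihood test of edgeR. With its exact test 0 RAP2 and DEAR genes passed and 1 DRE‐linked gene, *COR15A*, which had few reads (2.24% of all genes lower, 1.71% higher). With DESeq2 1 of each list passed, *RAP2.3* higher and *DREB2A* lower (1.75% of all genes lower, 1.46% higher).

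**Figure D4:**
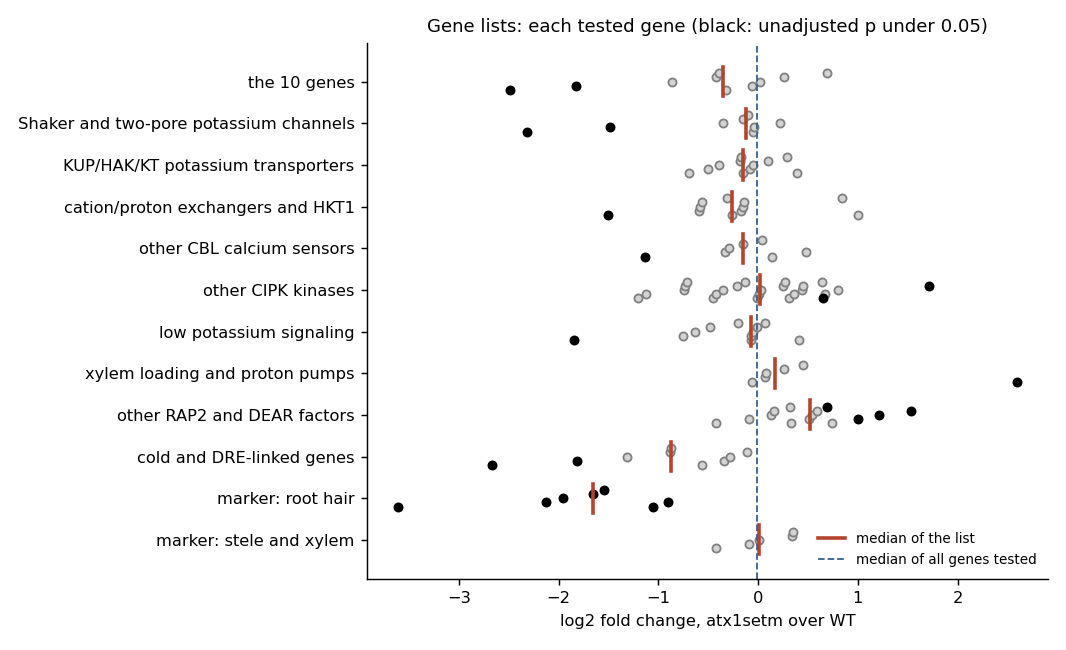
Log2 fold change of *atx1setm* over WT for every tested gene of the 10 genes and of 11 lists, with black points for genes at an unadjusted p under 0.05, grey points for the others, a red line for the median of each list and a dashed line for the median of all genes tested (−0.01). The KUP/HAK/KT list stays between −0.69 and 0.39, whereas the 7 root hair markers lie between −3.61 and −0.9.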

How the data were processed

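Root libraries of *atx1setm* and WT (2 biological replicates each) were analysed from 1 deposited table of 28642 loci. The authors mapped single‐end reads of 50 bases to TAIR10 with CLC Genomics Workbench v7.5. Strandedness is not given in the sources used here. The exon, intron and junction reads are raw counts as deposited, and RPKM is the authors' deposited value, scaled to exon length and mapped reads. Columns of the authors' own comparison (fold change, p‐values) were not used, nor were 52 other per‐library columns. The labels and methods differ in seedling age and medium. Exon reads numbered 42842799 and 45025842 in *atx1setm* and 46439122 and 38574293 in WT. Counting error is small at this depth except for genes with few reads.

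Genes kept by filterByExpr (20714) were tested with the quasi‐likelihood test (legacy fit) of edgeR 4.0.16 in R 4.3.3 after TMM scaling (factors 1.09 and 0.855 in *atx1setm*, 1.06 and 1.01 in WT), with Benjamini‐Hochberg adjustment over all genes tested. SE is the log2 fold change over the square root of F. The script was tested on simulated data. Alternatives were 14 planned ones, among them edgeR's exact test, DESeq2 1.42.0 and limma‐trend 3.58.1 on RPKM, and 1 chosen after seeing the data. All 10 genes are named, and from each list up to 3 genes with the smallest p, with *RAP2.9* added after its value was seen. A gene that the rule selects is not reported here. Of 147 genes listed, 3 were left out, *RAP2.4B* by a fixed rule and the others because their symbol was not in the name table. The genes and lists were chosen with earlier results of these data known. Whether the biological replicates were separate plant cultures is not given, and p‐values measure only the spread between these libraries. Promoter letters were read from TAIR10.1 at the deposited positions. Of 28009 named loci, 6035 had identical start and end in both annotations.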

Additional observations from a re-analysis of the deposited data

How the results depend on the processing

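Of 150 log2 fold changes of the 10 genes under 15 alternatives, 124 kept their direction and side of the threshold, 15 passed an adjusted p of 0.05 in addition and 11 turned in sign. *RAP2.11* stayed between −1.94 and −1.71 and *HAK5* between −2.82 and −2.21. The turns were in *KC1* (−0.02 with the replicate block, −0.04 with library totals without TMM, −0.12 with limma‐trend at either pseudocount, −0.33 to 0.31 with 1 library left out), *AKT1* (−0.46 to 0.28 with 1 library left out), *CBL1* (−2.31 to 0.55) and *SKOR* (−0.31 to 0.82). Limma‐trend on RPKM moved the median of all genes to −0.11 and −0.13. Genes of the 10 called lower at an adjusted p under 0.05 numbered 0, against 2 by edgeR's exact test, 2 by DESeq2 and 1 to 3 with 1 library left out, and those called higher 0 to 1 (of all genes, 0.429% to 11.5% lower and 0.267% to 10.2% higher with 1 library left out). At an unadjusted p, 2 to 4 were lower and 0 to 1 higher with 1 library left out. Of the further potassium genes, 5 were lower, against 3 with at least 10 counts in every library and 3 to 22 with 1 library left out, and 3 were higher, against 2 to 8. The highest of these counts were without *atx1setm* replicate 1, where 19.1% of all genes were lower and 17.2% higher at an unadjusted p, against 2.15% and 1.96% without WT replicate 1. A genotype left with 1 library is assumed to vary like the other. The cause was not tested.

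Replicate numbers are shared by the labels, but no source says that a number marks a common batch. Deviations of same‐numbered libraries correlated over genes (r = 0.71). With the replicate block, 3 of the 10 were called lower at an adjusted p, against 9.9% of all genes lower and 8.87% higher. They were *RAP2.11*, *HAK5* and *CBL1* (−0.88, adjusted p 0.00192), whose level in *atx1setm* was 0.552 and 0.538 times that in the WT library of the same number. Of the 10, 1 was higher at an unadjusted p, and 20 of the further potassium genes were lower and 8 higher. Over all genes, 16.1% were lower and 14.3% higher at an unadjusted p with the block. With 2 libraries a genotype, genes with few reads (*COR15A*, *HAI2*, *AKT2*) are the least certain.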
